A study of Mus musculus with 15 samples.

Results

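The 10 genes described here are ERK pathway feedback and response genes, taken from the 48709 genes counted in each of 15 mouse ESC libraries. They were chosen by name as genes whose transcription is widely used to read ERK activity, namely *Dusp6*, *Dusp4*, *Spry2*, *Spry4*, *Spred1*, *Etv4*, *Etv5*, *Egr1*, *Fosl1* and *Ier3*. CreER ESCs (genotype Oct4Fl/-; CAG CreER, on a mixed 129SV and C57BL/6 strain background) received 500 nM 4-OHT, which activates a ubiquitously expressed Cre recombinase and deletes the floxed *Pou5f1* allele. CreER cells were collected at 0, 12, 18, 24 and 36 h, with 2 libraries at each time. O4AID ESCs (Oct4-/-; TetOFF Oct4; CAG Oct4AID; CAG Tir1, strain 129SV) lacked endogenous OCT4 and lived on a degron-tagged OCT4, which the auxin IAA (500 µM) directs to degradation. O4AID cells were collected at 0, 1.5, 6, 10 and 24 h, with 1 library at each time, and carried 1 µg/ml doxycycline throughout to silence their untagged *Oct4* transgene. The labels give the same naive medium for all libraries, N2B27 with 1 µM PD03, 3 µM Chiron and mLIF. The study's methods describe a move to serum medium with 4-OHT for other assays of CreER cells, and the sources do not state whether the sequenced cultures were moved. No library of vehicle or of time alone was among the samples, so the agent, the time and the loss of OCT4 cannot be told apart. Line, strain, transgenes and doxycycline differ together between the lines and cannot be told apart either. The medium of the CreER cultures up to 0 h is known from that label alone, and its part in the differences between the untreated lines was not tested.

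ERK is the last kinase of a cascade that runs from receptors such as the FGF receptors through RAS, RAF and MEK, and PD03 (PD0325901) is an inhibitor of MEK. Active ERK phosphorylates transcription factors, which switch on immediate early genes within minutes and a second set of genes that feed back on the cascade. In mouse ESCs, FGF4 made by the cells themselves drives this pathway towards exit from naive pluripotency, and the inhibitor in the medium is there to hold it back. Gene counts read the transcripts of the pathway and not the activity of the kinase. In bulk cultures, fewer cells that express a gene and less RNA per cell cannot be told apart.

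CreER libraries held 21.7 to 30.8 M (mega) counted reads, and O4AID libraries 40.5 to 48.7 M. Levels are given as counts per 1000000 counts (CPM) after TMM scaling over all 15 libraries. *Pou5f1*, the gene of OCT4, stood at 317 and 321 CPM in CreER at 0 h and at 112 and 123 at 36 h. In O4AID, where IAA acts on the protein, *Pou5f1* stood at 766 CPM at 0 h and 633 at 24 h. The 6 ESC markers, *Pou5f1* among them, were all detected in every library. Their summed level was 2246 and 2269 CPM in CreER at 0 h and 1900 and 1844 CPM at 36 h. In O4AID it was 5061 CPM at 0 h and 1649 CPM at 24 h, lower in each library than in the one before. The 6 fibroblast feeder markers summed to 9.50 CPM at most, and 2 or 3 of them were at 0 in each O4AID library.

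At the untreated stage the lines differed widely in these genes. *Spry4*, *Dusp4*, *Dusp6* and *Egr1* were 16.5-fold to 97.7-fold lower in O4AID than in CreER, whereas *Etv4* was level and *Etv5* was higher in O4AID. After IAA, *Spry2*, a Sprouty inhibitor of RAS signalling, was lower by the first time point of 1.5 h, and *Spry2*, *Spry4*, *Etv5* and *Dusp6* stood at 0.176, 0.301, 0.363 and 0.392 of their 0 h level at 24 h, for *Spry4* on 27 counts against 86. After 4-OHT, the first calls in CreER came at 18 h, with *Dusp4* and *Spry4* higher and *Egr1* lower. At 24 h *Dusp4* was again higher and *Egr1*, *Etv5* and *Spred1* were lower, and at 36 h 6 members were lower. *Dusp6* was not called at any time in CreER with TMM scaling.

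**Figure D1:**
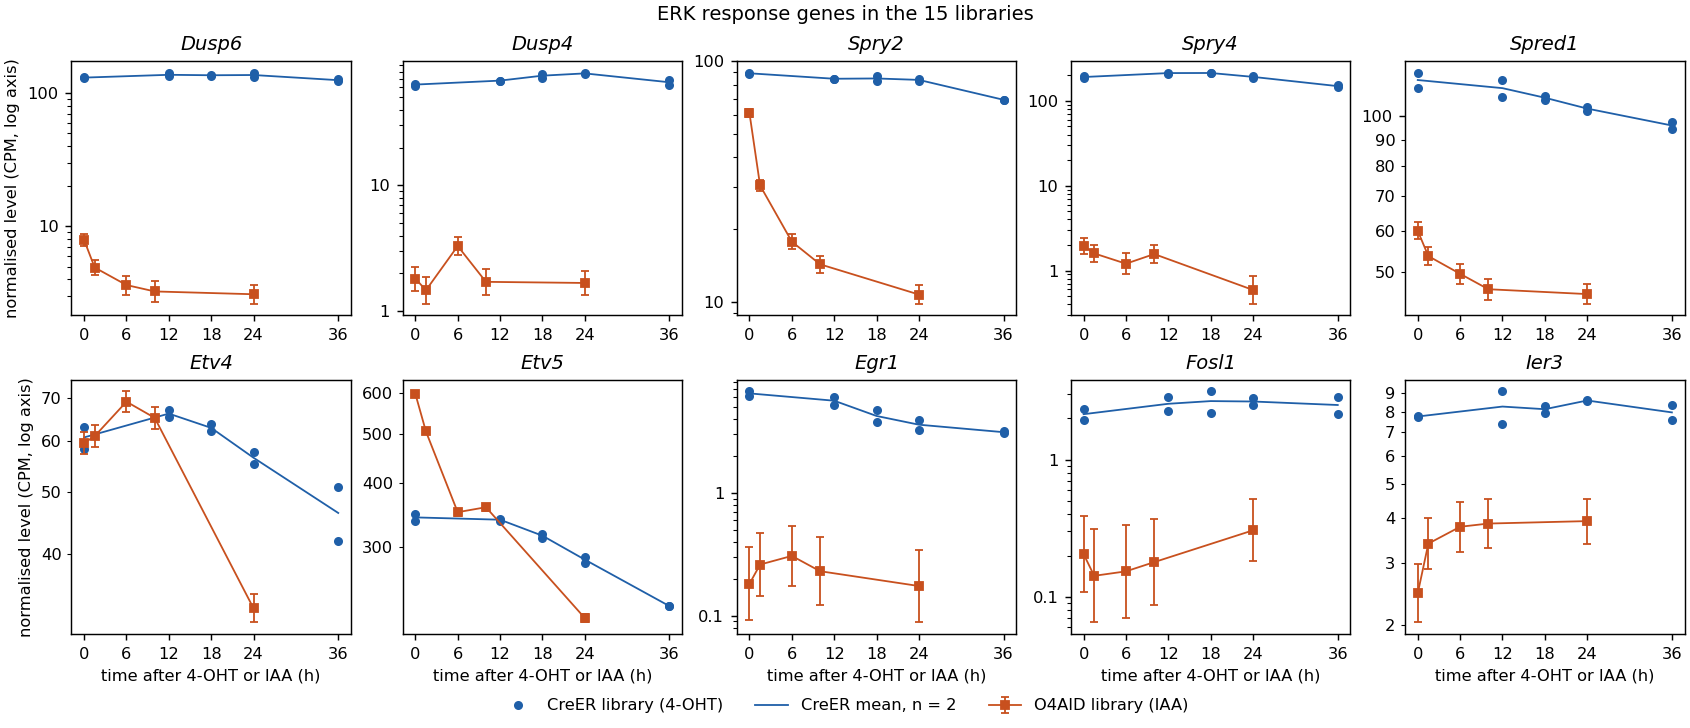
Normalised level (CPM on a log axis, with a different range in each panel) of the 10 genes against time after 4-OHT or IAA in hours. Blue points are the CreER libraries and the blue line their mean, and orange squares are the single O4AID libraries with 95% Wilson intervals, which cover counting error only. *Spry2* in O4AID goes from 60.9 to 10.7 CPM, and *Dusp6* lies between 122 and 142 CPM in CreER and at or below 7.90 CPM in O4AID.

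In CreER, each time was tested against 0 h by edgeR (quasi-likelihood), and calls were made where the p adjusted over all genes tested (Benjamini-Hochberg) was under 0.05. At 12 h, 0 of 10 members were called, where 0.395% of all genes were; DESeq2 also called 0, and 1 member (*Spry4*) had an unadjusted p under 0.05. At 18 h, 3 of 10 were called, 2 higher and 1 lower, against 8.25% of all genes, and the number was 1 without replicate 2 of 0 h or without either replicate of 18 h. At 24 h, 4 of 10 were called, 1 higher and 3 lower, against 21.6% of all genes. At 36 h, 6 of 10 were called, all lower, where 36.6% of all genes were called and 18.0% were called lower. The median log2 fold change of the 10 genes at 36 h was -0.32, beside -0.004 for all 18993 genes tested.

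The O4AID libraries have no replicates, so the changes are given as values without a test of their own, and a gene was counted as past the fold at an absolute log2 change of 1 or more on the scale of CPM plus 1. None of the 10 was past the fold at 1.5 h, where 0.0858% of all genes with a mean of at least 10 counts were. At 6 h it was 1 of 10 (*Spry2*), against 0.977% of all genes. At 10 h it was 2 of 10 (*Spry2* and *Dusp6*), against 2.13%. At 24 h it was 3 of 10 (*Spry2*, *Etv5* and *Dusp6*), all lower, against 6.78% in either direction and 2.96% lower. The 24 h number was 4 with a pseudocount of 0.1 CPM, which added *Spry4*, and 2 with a pseudocount of 5 CPM or total-count scaling, which left out *Dusp6*. The median log2 change of the 10 genes at 24 h was -0.62, beside -0.02 for all 17844 genes compared. A mean of at least 10 counts, which the share of all genes requires, was reached by 8, 9, 8 and 9 of the 10 at 1.5, 6, 10 and 24 h. An edgeR fit of all 15 libraries, in which a lone O4AID library is assumed to vary like the CreER replicates, called 3, 7, 5 and 7 of the 10 at 1.5, 6, 10 and 24 h, where it called 1.64%, 15.1%, 25.0% and 45.6% of all genes.

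Between the untreated lines, 6 of 10 members were past the same fold, all lower in O4AID, where 32.2% of all genes were past it in either direction and 15.2% were lower in O4AID. The median log2 difference (O4AID minus CreER) was -1.36 for the 10 genes and 0.04 for all 18602 genes. Scaling by total counts put the median of all genes at -0.12 instead, and 7 of the 10 genes were then past the fold. With a pseudocount of 5 CPM, *Fosl1* (-0.46) and *Ier3* (-0.77) fell under the fold. *Dusp6*, *Dusp4*, *Spry4* and *Egr1* stayed past it. The edgeR fit of all 15 libraries called 9 of the 10, but it also called 76.5% of all genes.

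**Figure D2:**
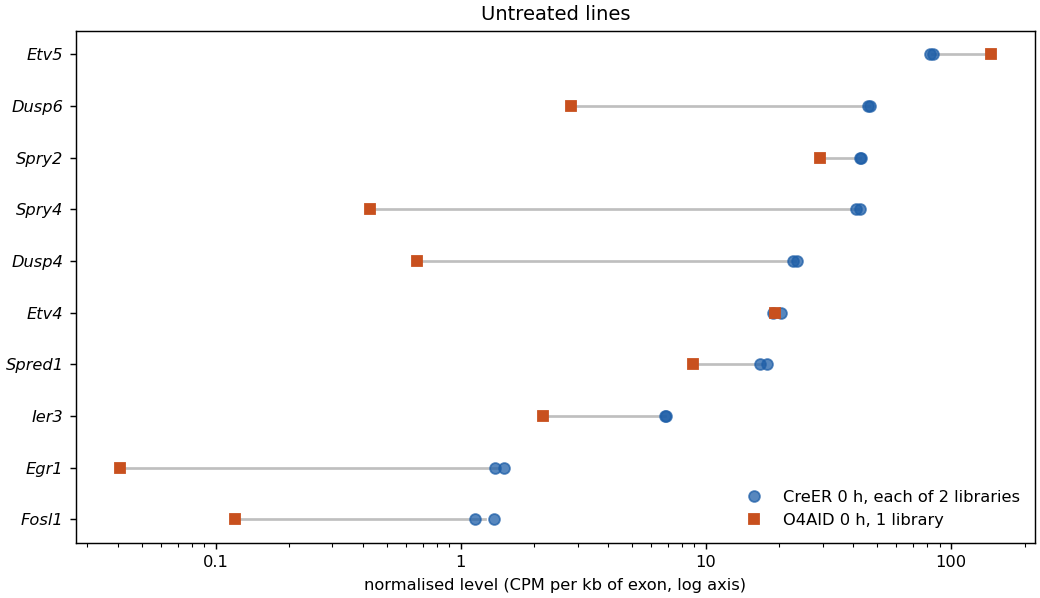
Level of each gene in the untreated libraries, as CPM per kb of exon on a log axis. Blue points are the 2 CreER libraries and orange squares the O4AID library. *Spry4*, *Dusp4*, *Dusp6* and *Egr1* lie far apart, *Etv4* overlaps and only *Etv5* is higher in O4AID.

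Markers of the ESC state and of other states moved with these comparisons. In O4AID at 24 h, 5 of the 6 ESC markers were past the fold and lower, where 2.96% of all genes were. Their median log2 change was -1.96, beside -0.62 for the 10 members. In CreER at 36 h, 4 of the 6 ESC markers were called lower and 1 (*Nanog*, at 0.19) higher, where 36.6% of all genes were called. Among the 4 was *Pou5f1* (-1.44), the gene that 4-OHT deletes, so its decrease was set by the design. The others were *Zfp42* (-0.56), *Dppa5a* (-0.44) and *Sox2* (-0.16). The 6 primed epiblast and mesoderm markers summed to 642 and 646 CPM in untreated CreER and to 108 CPM in untreated O4AID, where *Fgf5* was at 0. Most of that sum was *Dnmt3b*, at 578 and 581 CPM in CreER and 100.4 CPM in O4AID. At 36 h in CreER, where 6 members were lower, the 6 markers summed to 474 and 477 CPM, and 5 of them were called lower, with a median log2 fold change of -0.79. In O4AID they summed to 123 CPM at 24 h. The 8 trophectoderm markers, all detected in every library, summed to 262 and 272 CPM in CreER at 0 h and 537 and 583 CPM at 36 h, and to 27.0 CPM in O4AID at 0 h and 97.4 CPM at 24 h. Most of that CreER sum at 0 h was *Krt18*, at 139 and 141 CPM, and *Krt8*, at 95.1 and 89.1 CPM. In O4AID at 24 h 3 of the 8, the keratins *Krt7*, *Krt8* and *Krt18*, were past the fold and higher, and 5 were not past it. Of all genes, 6.78% were past the fold. *Eomes* and *Elf5* had log2 changes of 0.05 and 0.07. The 6 primitive endoderm markers summed to 14.4 and 16.5 CPM in CreER at 0 h and 35.9 and 36.9 CPM at 36 h, and to 10.6 CPM in O4AID at 0 h and 45.1 CPM at 24 h. Most of their CreER sum at 0 h was *Dab2*, at 10.0 and 8.55 CPM, which stood at 1.05 CPM in untreated O4AID. *Gata6* went the other way, at 0.859 and 0.693 CPM in untreated CreER and 4.85 CPM in untreated O4AID. Between the untreated lines 2 of the 6 were past the fold and lower in O4AID and 1 (*Gata6*) was higher. Of all genes, 32.2% were past it. At 36 h in CreER 2 of these 6 were called higher, 1 (*Sox7*, at -1.71) was called lower and 3 were not called, where 36.6% of all genes were called. After IAA the 5 genes of the aryl hydrocarbon receptor battery, a response to foreign compounds, went from 170 CPM at 0 h to 892 CPM at 24 h. In CreER these 5 genes summed to 166 to 192 CPM, most of it *Tiparp*, at 106 and 111 CPM at 0 h. At 36 h in CreER 3 of the 5 were called higher and 1 lower, where 36.6% of all genes were called. *Cyp1b1* had a log2 fold change of 1.26 and *Tiparp* of -0.30. The part of these markers in the results below was not tested.

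Promoter sequence from RefSeq (GRCm38.p6) was matched for 5 of the 10 genes, as windows of 250 bases before and 50 bases after a start site. The windows of the 3 genes past the fold in O4AID at 24 h are given 5′ to 3′ on the strand of the gene, with the ETS core GGAA (TTCC on the other strand), the letters bound by ETV4, ETV5 and other ETS factors through which ERK acts, in capitals. The *Dusp6* window is chr10:99262981-99263280 on the plus strand, that of *Spry2* is chr14:105896770-105897069 on the minus strand, and that of the upstream start of *Etv5* is chr16:22439521-22439820 on the minus strand.
Dusp6: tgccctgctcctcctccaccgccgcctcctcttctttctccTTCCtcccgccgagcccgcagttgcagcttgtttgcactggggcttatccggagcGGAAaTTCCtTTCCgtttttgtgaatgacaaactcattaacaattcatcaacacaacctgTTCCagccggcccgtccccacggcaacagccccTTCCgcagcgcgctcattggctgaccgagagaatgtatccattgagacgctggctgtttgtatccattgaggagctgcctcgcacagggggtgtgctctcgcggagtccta
Spry2: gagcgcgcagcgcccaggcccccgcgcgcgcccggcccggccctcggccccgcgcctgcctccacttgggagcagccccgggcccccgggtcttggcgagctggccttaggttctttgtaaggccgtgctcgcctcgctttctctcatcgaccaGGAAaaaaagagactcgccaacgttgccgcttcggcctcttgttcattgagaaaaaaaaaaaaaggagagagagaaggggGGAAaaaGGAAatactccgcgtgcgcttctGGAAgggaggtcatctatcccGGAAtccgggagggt
Etv5: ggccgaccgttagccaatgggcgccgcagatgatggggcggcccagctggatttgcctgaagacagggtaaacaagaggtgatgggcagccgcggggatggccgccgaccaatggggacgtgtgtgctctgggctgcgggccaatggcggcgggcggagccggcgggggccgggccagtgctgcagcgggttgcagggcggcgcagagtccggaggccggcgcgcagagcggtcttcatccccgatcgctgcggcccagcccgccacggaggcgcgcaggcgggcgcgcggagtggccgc
The *Dusp6* window held the core 6 times and the *Spry2* window 5 times, and the *Etv5* window did not hold it, whereas the window of the downstream *Etv5* start held it 6 times. The core stood in 96.0% of all 32851 mouse windows of this length, so its presence is common. Longer motifs were searched on both strands as well, the ETS site CCGGAAGT, the octamer ATGCAAAT that OCT4 reads, the AP-1 site TGANTCA, the cyclic AMP response element TGACGTCA and the CArG box of SRF. They stood in 3.89%, 1.74%, 7.81%, 1.79% and 1.63% of all windows, and none of them was in a window of the 5 genes.

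Among the feedback phosphatases, which remove phosphate from ERK and so shut it off, *Dusp6* is the cytoplasmic enzyme that is most specific for ERK. *Dusp6* (ENSMUSG00000019960, chromosome 10, 99263231 to 99267488, plus strand, GRCm38) stood at 129 and 131 CPM in CreER at 0 h, 133 and 140.1 at 12 h, 137 and 135 at 18 h, 131 and 142 at 24 h, and 122 and 127 at 36 h. The 36 h libraries were both below the 0 h libraries, but by less than 10 CPM. Its log2 fold change was 0.07, 0.06 and 0.06 at 12, 18 and 24 h, and -0.06 at 36 h (SE 0.047, edgeR adjusted p 0.305), and the last was called with total-count scaling, at -0.14 (adjusted p 0.0227). In O4AID, *Dusp6* stood at 7.90, 4.92, 3.63, 3.25 and 3.10 CPM at 0, 1.5, 6, 10 and 24 h, from 347 counts in the first and 142 in the last library. Each library was thus lower than the one before it, with most of the difference present at 6 h. The counting intervals of the 6, 10 and 24 h libraries overlapped, so the order among these is not firm. The log2 change of -0.59 at 1.5 h (95% interval -0.89 to -0.29) had rank 82 from the lowest among 17477 genes. The 3 later changes were -0.94, -1.07 and -1.12, the last with an interval of -1.43 to -0.80. The fold was missed with total-count scaling, at -0.97 at 10 h and -0.999 at 24 h. Untreated, *Dusp6* was 16.5-fold lower in O4AID than in CreER, a log2 difference of -3.88.

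*Dusp4*, a nuclear phosphatase of ERK and related kinases, rose in CreER for part of the course. *Dusp4* (ENSMUSG00000031530, chromosome 8, 34807297 to 34819894, plus strand) stood at 64.4 and 62.1 CPM at 0 h, 68.0 and 68.0 at 12 h, 76.9 and 71.9 at 18 h, 76.5 and 78.6 at 24 h, and 63.1 and 68.8 at 36 h. The libraries from 12 to 24 h all lay above both 0 h libraries, and those at 36 h overlapped them. Its log2 fold changes of 0.24 (SE 0.053) at 18 h and 0.30 (SE 0.052) at 24 h were called, with edgeR adjusted p of 0.00459 and 0.000135. The call at 18 h was lost without replicate 2 of 0 h (adjusted p 0.0651) and without replicate 1 of 18 h (0.137). In O4AID, *Dusp4* stood at 1.82, 1.47, 3.30, 1.72 and 1.68 CPM in order of time. The 6 h library stood above the other 4, at 129 counts against 62 to 80, with a log2 change of 0.61 (95% interval 0.21 to 1.00). The untreated O4AID cells held 34.7-fold less *Dusp4* than CreER cells, a log2 difference of -4.51.

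The Sprouty and Spred proteins damp signalling between the receptor and RAF. *Spry2* (ENSMUSG00000022114, chromosome 14, 105891949 to 105896819, minus strand) stood at 88.6 and 89.8 CPM in CreER at 0 h, 84.9 and 84.5 at 12 h, 87.3 and 82.5 at 18 h, 83.2 and 84.3 at 24 h, and 69.3 and 69.1 at 36 h. All libraries after 0 h lay below both 0 h libraries, and the 36 h pair stood apart below the rest. The first 3 log2 fold changes, -0.08, -0.07 and -0.09, were not called, and that of 36 h was called, at -0.37 (SE 0.048, edgeR adjusted p 5.47e-07). In O4AID, *Spry2* stood at 60.9, 30.5, 17.8, 14.3 and 10.7 CPM in order of time, from 2673, 1283, 695, 559 and 491 counts. Its level was lower in each library than in the one before, with the largest step in CPM in the first 1.5 h. The log2 changes were -0.98 (95% interval -1.11 to -0.85), -1.72, -2.01 and -2.40 (-2.57 to -2.23). Counted from the lowest of all genes compared, *Spry2* had ranks 13, 10, 13 and 43 at these times. In the untreated state its log2 difference between the lines was -0.54, under the fold.

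*Spry4*, the other Sprouty gene, differed more than any other member between the untreated lines. *Spry4* (ENSMUSG00000024427, chromosome 18, 38586268 to 38601268, minus strand) stood at 195 and 188 CPM in untreated CreER and at 1.96 CPM in untreated O4AID, where it held 86 counts. It was 97.7-fold lower in O4AID, and its log2 difference of -6.02 ranked 85th from the lowest among 18602 genes. After 4-OHT, *Spry4* stood at 216 and 211 CPM at 12 h, 216 and 212 at 18 h, 188 and 197 at 24 h, and 153 and 146 at 36 h. The 12 and 18 h libraries lay above both 0 h libraries, the 24 h libraries overlapped them and the 36 h libraries lay below. The log2 fold changes were 0.15, 0.16, 0.01 and -0.36, with edgeR adjusted p of 0.128, 0.0180, 0.951 and 1.86e-07 in the same order. Without either replicate of 36 h the 12 h value was called as well (adjusted p 0.0444). The rise at 18 h was lost without replicate 2 of 0 h (adjusted p 0.160) and without replicate 1 (0.181) or replicate 2 (0.0859) of 18 h. In O4AID after IAA, *Spry4* stood at 1.59, 1.20, 1.56 and 0.590 CPM at the 4 times. The 24 h library was the lowest, with 27 counts and a log2 change of -0.90 (95% interval -1.28 to -0.48) that was -1.58 with a pseudocount of 0.1 CPM.

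*Spred1*, a membrane inhibitor that recruits neurofibromin to RAS, stood somewhat lower at the later times of both courses. *Spred1* (ENSMUSG00000027351, chromosome 2, 117121374 to 117182279, plus strand) stood at 113 and 121 CPM in CreER at 0 h, 109 and 118 at 12 h, 108 and 109 at 18 h, 104 and 102 at 24 h, and 94.4 and 97.4 at 36 h. From 18 h on, both libraries lay below both 0 h libraries. Its log2 fold change of -0.11 at 18 h was not called, and those of -0.18 at 24 h and -0.29 at 36 h (SE 0.048 for both) were, with edgeR adjusted p of 0.00607 and 2.11e-05. The call at 24 h was lost without replicate 2 of 0 h (adjusted p 0.0980) and without replicate 2 of 24 h (0.0724). In O4AID, *Spred1* stood at 60.1, 53.7, 49.7, 46.4 and 45.4 CPM in order of time. It was lowest at 24 h, with a log2 change of -0.40 (95% interval -0.51 to -0.28). Before treatment it was 1.95-fold lower in O4AID, at a log2 difference of -0.95, just under the fold, which was passed with total-count and RLE scaling.

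*Etv4* and *Etv5* encode ETS transcription factors of the PEA3 group, which FGF and ERK signalling induces. *Etv5* (ENSMUSG00000013089, chromosome 16, 22381309 to 22439719, minus strand) stood at 348 and 337 CPM in CreER at 0 h, 340.4 and 337 at 12 h, 318 and 312 at 18 h, 279 and 287 at 24 h, and 229 and 229 at 36 h. The libraries at 18, 24 and 36 h lay below both 0 h libraries, each pair below the pair before. The log2 fold change of -0.12 at 18 h had an edgeR adjusted p of 0.0627, and of 0.0414 with RLE scaling and 0.0259 without either replicate of 36 h. Those of -0.28 (SE 0.040) at 24 h and -0.58 (SE 0.041) at 36 h were called, with edgeR adjusted p of 8.97e-06 and 4.23e-12. In O4AID, *Etv5* stood at 599, 505, 351, 359 and 217 CPM in order of time. The untreated O4AID library was the highest of all 15 and the 24 h O4AID library the lowest. The log2 changes were -0.25 (95% interval -0.28 to -0.21), -0.77, -0.74 and -1.46 (-1.50 to -1.41). At 0 h *Etv5* was 1.75-fold higher in O4AID than in CreER, a log2 difference of 0.80.

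*Etv4* (ENSMUSG00000017724, chromosome 11, 101769742 to 101785371, minus strand) stood at 63.2 and 58.4 CPM in CreER at 0 h, 67.0 and 65.5 at 12 h, 63.7 and 62.1 at 18 h, 55.4 and 57.7 at 24 h, and 41.9 and 50.8 at 36 h. The 36 h libraries were the lowest and also differed most from each other. The first 3 log2 fold changes, 0.13, 0.05 and -0.10, were not called, and the last was, at -0.40 (SE 0.067, edgeR adjusted p 4.33e-05). This value was -0.26 without replicate 1 and -0.54 without replicate 2 of 36 h, and stayed called in both. In O4AID, *Etv4* stood at 59.6, 61.1, 69.2, 65.3 and 32.9 CPM in order of time. Only the 24 h library lay below the untreated one, with a log2 change of -0.84 (95% interval -0.96 to -0.71). Its 6 h and 10 h changes were 0.21 and 0.13, at the times when *Etv5* stood at -0.77 and -0.74. Untreated, *Etv4* was level between the lines, at a log2 difference of -0.03, with the O4AID library between the CreER libraries.

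The last group holds transcription factors and a small regulator that growth factors induce within minutes. *Egr1* (ENSMUSG00000038418, chromosome 18, 34859823 to 34864984, plus strand), a zinc finger factor induced by ERK through SRF and its ETS partners, stood at 6.72 and 6.17 CPM in CreER at 0 h, 5.21 and 6.03 at 12 h, 4.68 and 3.77 at 18 h, 3.24 and 3.94 at 24 h, and 3.05 and 3.18 at 36 h. At every time after 0 h both libraries lay below both 0 h libraries. *Egr1* had the largest decrease of the 10 genes in CreER, with log2 fold changes of -0.20, -0.61, -0.85 and -1.05 (SE 0.132, 0.139, 0.142 and 0.153). Their edgeR adjusted p was 0.720, 0.00513, 6.22e-05 and 3.43e-06. The call at 18 h was lost without replicate 2 of 18 h (adjusted p 0.141). In O4AID, *Egr1* held 8, 11, 12, 9 and 8 counts in order of time, or 0.175 to 0.307 CPM. The 24 h change was -0.01 on the log2 scale (95% interval -0.32 to 0.30), and at this depth a further decrease was not detectable. At 0 h *Egr1* was 35.4-fold lower in O4AID than in CreER, a ratio that rests on 8 counts in O4AID.

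*Fosl1*, which encodes the AP-1 subunit FRA1, was measured on few reads in both lines. *Fosl1* (ENSMUSG00000024912, chromosome 19, 5447703 to 5455945, plus strand) stood at 2.34 and 1.95 CPM at 0 h, 2.25 and 2.86 at 12 h, 2.19 and 3.16 at 18 h, 2.80 and 2.51 at 24 h, and 2.15 and 2.86 at 36 h. The 24 h libraries lay above both 0 h libraries and the other times overlapped them. Its log2 fold changes were 0.22 to 0.34, none of them called, and the 36 h value had an SE of 0.218 (edgeR adjusted p 0.476). In O4AID, *Fosl1* held 9, 6, 6, 7 and 14 counts in order of time. The 24 h library was the highest, with a log2 change of 0.12 (95% interval -0.23 to 0.45) that the counts do not separate from 0. Before treatment it was 10.5-fold lower in O4AID, a ratio that rests on 9 counts there.

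*Ier3*, a small regulator of cell survival that ERK phosphorylates, was the member that stood higher after IAA at all times. *Ier3* (ENSMUSG00000003541, chromosome 17, 35821684 to 35822923, plus strand) held 2.46, 3.40, 3.79, 3.87 and 3.93 CPM in O4AID in order of time, from 108 counts in the first and 180 in the last library. The untreated library was the lowest of the 5. The log2 change was 0.35 at 1.5 h (95% interval -0.03 to 0.72) and 0.51 at 24 h (0.15 to 0.87), under the fold at every time. In CreER, *Ier3* stood at 7.73 and 7.76 CPM at 0 h, 7.40 and 9.13 at 12 h, 8.31 and 7.94 at 18 h, 8.64 and 8.55 at 24 h, and 8.33 and 7.58 at 36 h. The 18 and 24 h libraries lay above both 0 h libraries, and no time was called, with log2 fold changes of 0.04 to 0.15. The untreated O4AID library held 3.15-fold less *Ier3* than those of CreER, a log2 difference of -1.34.

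**Figure D3:**
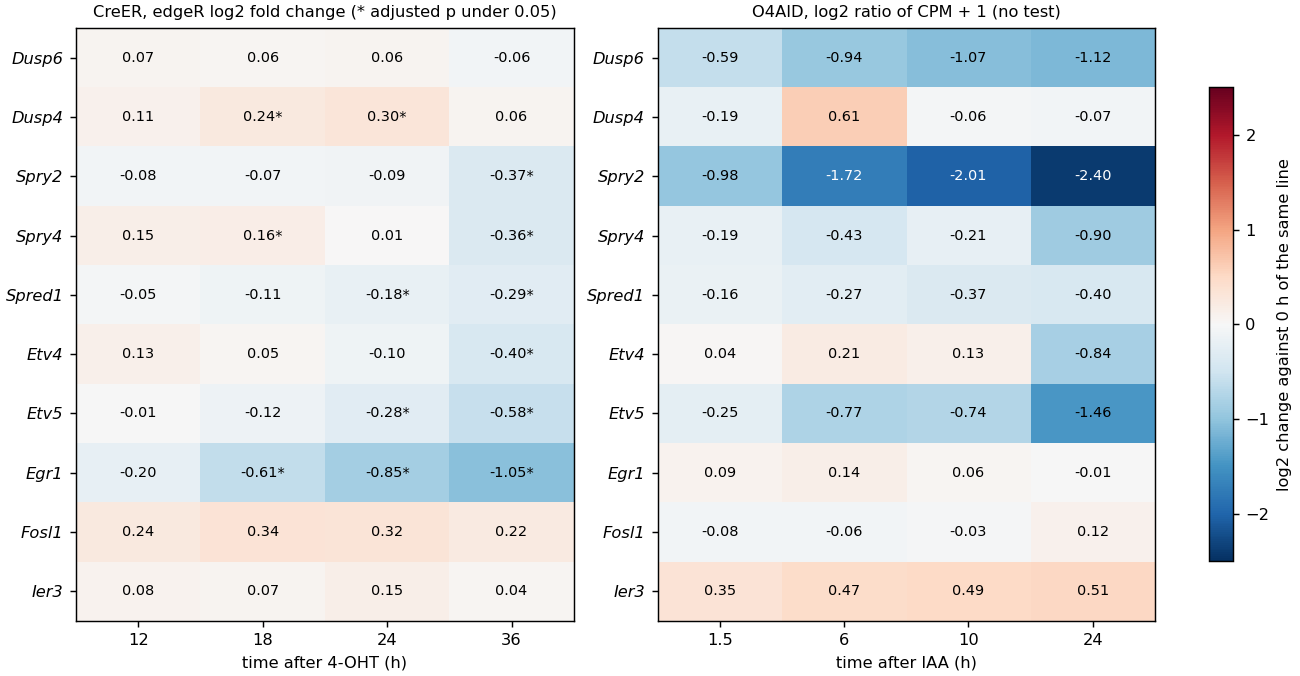
Log2 change of each gene against 0 h of its own line, at each time in hours, for CreER (left, edgeR log2 fold change, with a star at an adjusted p under 0.05) and O4AID (right, log2 ratio of CPM plus 1 between 2 libraries, no test). At 36 h in CreER 6 genes carry a star and all are lower, the lowest being *Egr1* at -1.05, and the lowest value in O4AID is *Spry2* at -2.40 at 24 h.

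Compared per length of exon, the order of the members differed between the lines. In untreated CreER, *Etv5* stood at 83.5 CPM per kb, followed by *Dusp6* at 46.6, *Spry2* at 42.8, *Spry4* at 41.7, *Dusp4* at 23.1, *Etv4* at 19.6, *Spred1* at 17.3, *Ier3* at 6.85, *Egr1* at 1.44 and *Fosl1* at 1.26. The ranges of the 2 libraries overlapped for *Spry2* and *Spry4* and for no other pair of neighbours. Those of *Egr1* (1.377 to 1.498) and *Fosl1* (1.141 to 1.373) nearly touched, with *Fosl1* on 59 and 60 counts, so their order is not firm. In untreated O4AID the order was *Etv5* at 146 CPM per kb, *Spry2* at 29.2, *Etv4* at 19.2, *Spred1* at 8.86, *Dusp6* at 2.83, *Ier3* at 2.18, *Dusp4* at 0.665, *Spry4* at 0.427, *Fosl1* at 0.120 and *Egr1* at 0.0406. The counting intervals overlapped for *Dusp6* and *Ier3* and for *Fosl1* and *Egr1*. *Etv5* led in both lines, while *Spry4*, level with *Spry2* in CreER, stood in the eighth place in O4AID.

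The only time after treatment that both courses share is 24 h, and the changes there come from different libraries. On the scale of CPM plus 1, 3 of 10 members (*Spry2*, *Etv5* and *Dusp6*) had a change in O4AID that differed from that in CreER by 1 or more, where 5.82% of all genes did. The log2 change of *Spry2* was -2.40 in O4AID and -0.10 and -0.08 in the CreER libraries. For *Etv5* it was -1.46 in O4AID and -0.29 and -0.25 in CreER. For *Dusp6* it was -1.12 in O4AID and 0.003 and 0.12 in CreER. The O4AID value lay well outside the 2 CreER values for these 3 genes, but also for most other members. *Spry4* stood at -0.90 in O4AID and -0.03 and 0.04 in CreER, and *Ier3* at 0.51 and at 0.14 and 0.13. The gap between 2 CreER libraries does not measure how a lone O4AID library varies. The edgeR fit of all 15 libraries called a difference for 6 of 10 members, all with the lower value in O4AID, against 30.2% of all genes. Those 6 were *Spry2*, *Spry4*, *Dusp6*, *Etv5*, *Etv4* and *Spred1*, and the fit assumes that a lone O4AID library varies like the CreER replicates. OCT4 is removed as a protein after IAA and through its gene after 4-OHT, so equal times need not be equal states.

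**Figure D4:**
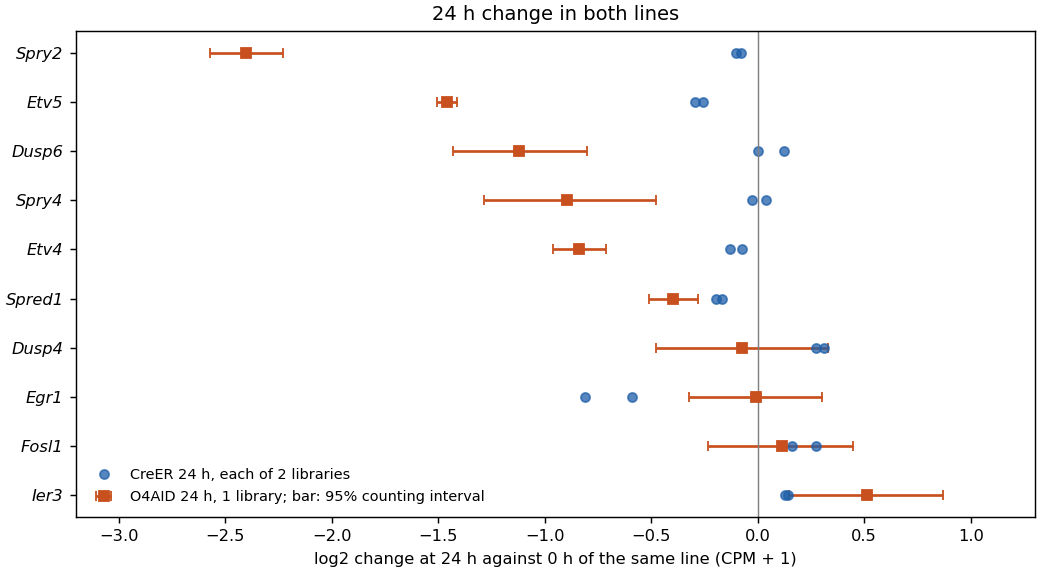
Log2 change at 24 h against 0 h of the same line (CPM plus 1). Orange squares are the O4AID library with 95% counting intervals and blue points the 2 CreER libraries, each against the mean of the CreER 0 h libraries. *Spry2*, *Etv5* and *Dusp6* lie at -2.40, -1.46 and -1.12 in O4AID, and their CreER values lie between -0.29 and 0.12.

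Members that varied alike were found by Pearson correlation over the 15 libraries on log2 of CPM plus 1, centred within each line. This is a description, since libraries of a line share its 0 h state and every library enters for all genes at once. *Dusp6* and *Spry2* were each the nearest member of the other (r = 0.972), as were *Spry4* and *Etv5* (r = 0.907). The r of *Dusp6* and *Spry2* rests mostly on O4AID, where their log2 changes reached -1.12 and -2.40. In CreER those of *Dusp6* lay between -0.06 and 0.07, and that of *Spry2* at 36 h was -0.37. *Spred1* was nearest to *Etv5* (r = 0.874) and *Etv4* to *Spry4* (r = 0.834). *Egr1* was nearest to *Spred1* (r = 0.621), and *Dusp4*, *Ier3* and *Fosl1* had no member above 0.338. Among 14075 genes, those most like *Dusp6* outside the set were *Rnd3*, *Kdm4b* and *Klf2*, with r of 0.955, 0.942 and 0.938.

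The rest of the pathway was read from lists of genes with the same kinds of role. Of all genes, 36.6% were called in CreER at 36 h (18.6% higher and 18.0% lower), 6.78% were past the fold in O4AID at 24 h and 32.2% between the untreated lines, and the counts of each list stand beside these shares. Of 12 other immediate early genes, 11 were tested in CreER, and at 36 h 6 rose, 1 fell and 4 were not called, with a median log2 fold change of 0.33. Those that rose included *Jun* (0.95, SE 0.083), *Fos* (0.80, SE 0.202) and *Atf3* (0.75, SE 0.143), beside -1.05 for *Egr1*. The call of *Fos* was lost without replicate 2 of 0 h (adjusted p 0.0707). In O4AID at 24 h, *Jun* stood at 737 counts against 195 at 0 h, a log2 change of 1.65, and was the only one of the 12 past the fold. In the untreated state 3 of 12 were past the fold and lower in O4AID, among them *Junb* at -1.97 and *Ier2* at -1.34, and 1, *Ier5*, was higher, at 1.43.

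Of 18 other feedback and delayed response genes, 17 were measured, and at 36 h in CreER 7 rose, 4 fell and 6 were not called, beside 36.6% called among all genes. *Dusp9*, a phosphatase of the same family as *Dusp6*, rose from 171 to 363 CPM in the mean (log2 fold change 1.09, SE 0.043, edgeR adjusted p 3.32e-17). *Fosl2*, the AP-1 relative of *Fosl1*, rose by 1.00 on the log2 scale (SE 0.088), and *Myc* fell by 1.22 (SE 0.088). In O4AID at 24 h, 3 were past the fold and lower and 1 was higher, where 6.78% of all genes were past it. The higher gene was again *Dusp9*, at 1.27, and 13 were neither. The 3 lower genes were *Etv1*, the third PEA3 factor, at -2.13, and the ephrin receptor genes *Epha2* at -2.11 and *Epha4* at -1.87. At 0 h, 5 of 17 were past the fold and lower in O4AID and 2 were higher, beside 32.2% of all genes in either direction. *Myc* held 620 and 747 counts in CreER and 1 count in O4AID, and *Fosl2* differed by -2.71, whereas *Epha4* was higher in O4AID by 2.26.

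Most kinases and adaptors of the cascade were under the fold between the lines. Of 22 genes of the cascade from GRB2 to ERK and its RSK kinases, 3 were past the fold between the untreated lines, all higher in O4AID, namely the exchange factor *Sos2* (1.54), the scaffold *Ksr1* (1.20) and the RAS inhibitor *Nf1* (1.17), where 32.2% of all genes were past it. The median difference of the 22 was 0.01, beside -1.36 for the 10 response genes. In O4AID 0 of 22 were past the fold at any time after IAA, where 0.0858% to 6.78% of all genes were, so that few or none of 22 would be past it at the rate of all genes. In CreER at 36 h, 9 of 22 rose and 7 fell, against 36.6% of all genes called, with *Ksr1* (0.69, SE 0.074) and *Frs2* (0.62, SE 0.066) among the higher, *Grb2* (-0.50, SE 0.087, and -0.32 without replicate 2 of 36 h) among the lower, and a median of 0.02.

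Transcription factors regulated by ERK, directly or through partners, were listed apart. At 36 h in CreER, 5 of 8 rose, 1 fell and 2 were not called, where 36.6% of all genes were called, and *Ets1* (0.84, SE 0.086), *Ets2* (0.32, SE 0.079) and *Cic* (0.31, SE 0.056), the last a repressor of *Etv4* and *Etv5* that ERK inactivates, were among those that rose. In O4AID at 24 h *Ets1* was the only one of 8 past the fold, at 1.26 on 46 and 178 counts. Untreated, *Ets1* was lower in O4AID by a log2 difference of -2.71 and *Ets2* was higher by 1.71.

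The ligand and receptors above the cascade moved as well. *Fgf4*, the ligand of ESCs, fell in CreER by 0.74 on the log2 scale at 36 h (SE 0.045, edgeR adjusted p 2.68e-13) and stood at a log2 change of -3.12 in O4AID at 24 h (95% interval -3.22 to -3.02). *Fgfr2* rose in CreER by 1.17 (SE 0.053) and *Fgf5* fell by 0.96 (SE 0.144). Of the 6 genes of this list, 2 rose and 2 fell in CreER at 36 h, and 1 (*Fgf4*) was past the fold in O4AID at 24 h, against 36.6% and 6.78% of all genes. Between the untreated lines, *Fgfr2* was 5.15-fold lower in O4AID, and *Fgf5* held 185 and 200 counts in CreER and 0 in O4AID.

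**Figure D5:**
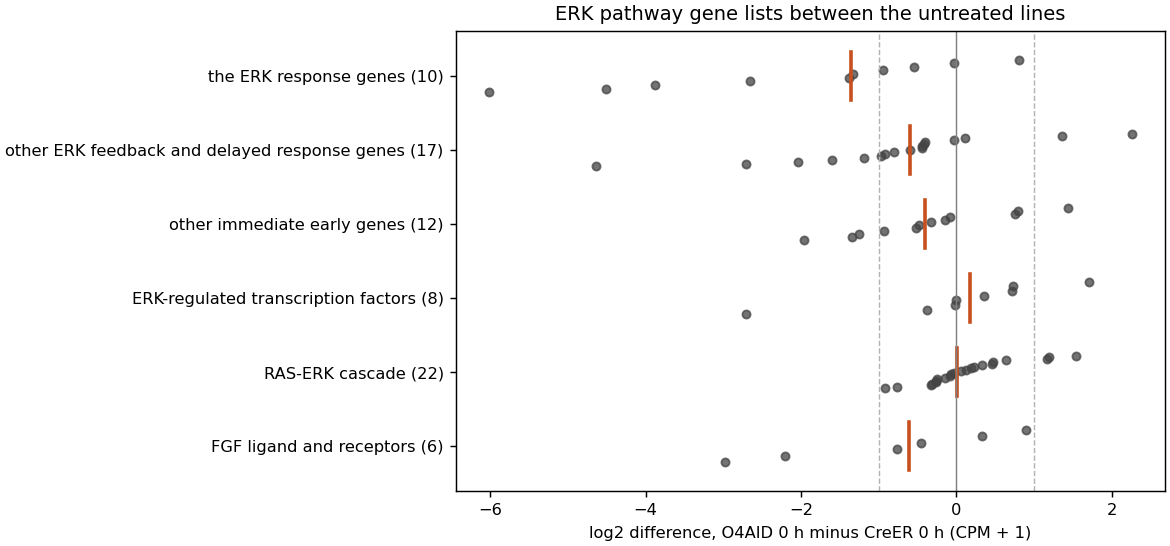
Log2 difference between the untreated lines (O4AID minus CreER, CPM plus 1) for each gene of 6 lists of the ERK pathway, with the number of genes in brackets. Each point is a gene, the orange bars are list medians and the dashed lines mark the fold of 1. The 10 response genes reach from -6.02 to 0.80, and the 22 cascade genes have a median of 0.01.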

How the data were processed

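The authors depleted ribosomal RNA, made directional libraries, sequenced them and aligned the reads to GRCm38/mm10. Trim Galore 0.1.4, TopHat2 2.1.0 and featureCounts 1.5.1 are named in the submitters' processing notes. Strand and multimapping settings are not given in the sources used here, so reads of overlapping genes may be mixed. The deposited files hold raw read counts per gene. A deposited table of TMM-scaled values was not used. Each file lists 48801 entries, of which 92 spike-ins held 0 reads and were left out.

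Groups, times and replicate numbers came from the labels. Nothing there says that replicates were separate cultures, so p-values measure the spread between these libraries, which may be technical. The replicate pairs differed beyond sampling noise (chi-square per degree of freedom 3.02 to 7.00). TMM factors were computed over all 15 libraries. The 10 CreER libraries were fitted together with edgeR 4.0.16 (R 4.3.3, quasi-likelihood, filterByExpr, robust, prior count 0.125), each time against 0 h, with Benjamini-Hochberg adjustment over 18993 genes. O4AID and line differences are log2 ratios of CPM plus 1, which understate changes of low genes, with a background of genes having a mean of at least 10 counts. Their 95% Wilson intervals (SciPy 1.17.1) cover counting error only. Exon lengths and positions came from GENCODE annotation of GRCm38. The CreER fit was also run on counts simulated from the CreER means and spread, with known changes at 36 h. That run cannot show how a lone O4AID library varies or whether replicates were separate cultures.

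The members and lists were chosen with earlier results of these data known. The rule named the 10 members, and from each list up to 3 genes with the largest change among those called or past the fold with a mean of at least 50 counts. Alternatives were DESeq2 1.42.0, RLE and total-count scaling, TMM over CreER alone, other filters and pseudocounts, the 4 libraries compared alone, a replicate block, 1.5 h as the reference, CreER at 36 h, and each CreER library left out. A background of genes with at least 1 count was added after seeing the data.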

Additional observations from a re-analysis of the deposited data

Results flagged for a closer look

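Of the 10 members, 6 had a change at 24 h that differed between O4AID and CreER in an edgeR fit of all 15 libraries, which called 30.2% of all genes. The difference of the log2 changes, O4AID minus CreER, was -2.41 for *Spry2* (SE 0.094, adjusted p 8.20e-19), -1.73 for *Spry4* (SE 0.253, adjusted p 2.76e-06) and -1.41 for *Dusp6* (SE 0.143, adjusted p 3.17e-09). It was -1.19 for *Etv5* (SE 0.071, adjusted p 2.45e-14), -0.752 for *Etv4* (SE 0.108, adjusted p 3.38e-06) and -0.221 for *Spred1* (SE 0.086, adjusted p 0.0495). The spread came from the CreER replicates alone, since each O4AID group is 1 library. *Spry4* rested on 86 and 27 counts in O4AID, and on the scale of CPM plus 1 its difference was -0.90. The causes were not tested.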

How the results depend on the processing

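The members called in CreER numbered 0, 3, 4 and 6 at 12, 18, 24 and 36 h with DESeq2, with TMM over CreER alone, with at least 10 counts in every library, with only the libraries compared and with the replicate block. Replicates shared only a number, since the deviations of same-numbered replicates correlated at -0.0391 to 0.077, and the block changed no call of a member. Leaving out 1 library gave 0 to 1 members at 12 h and 1 to 4 at 18 h. The count of 24 h was then 3 or 4, and that of 36 h was 6 each time. DESeq2 called 990 and 2594 genes in all at 18 and 24 h, against 1566 and 4108. Total-count scaling moved the share of higher calls from 66.7% to 37.3% at 12 h, from 48.8% to 61.3% at 24 h and from 50.8% to 36.0% at 36 h in CreER. In O4AID it moved the share higher among genes past the fold from 41.8% to 52.5% (6 h) and from 56.3% to 66.6% (24 h). In CreER, RLE scaling moved the 24 h share the other way, to 39.3%, and that of 18 h from 53.1% to 44.5%. In O4AID the members past the fold at 6 h numbered 2 with a pseudocount of 0.1 CPM and 0 against 1.5 h. At 10 h the number was 1 with total-count scaling, with a pseudocount of 5 CPM or against 1.5 h. At 24 h it was 4 with a pseudocount of 0.1 CPM (*Spry4* at -1.58) and 2 with a pseudocount of 5 CPM (*Dusp6* at -0.67), with total-count scaling (*Dusp6* at -0.999) or against 1.5 h. The edgeR fit of all 15 libraries called 3, 7, 5 and 7 members in order of time, and 6 for the 24 h difference between lines. No sign of a called change reversed. Among log2 fold changes that were not called, *Spry4* at 24 h was -0.0202 with RLE scaling, and at 36 h *Dusp4* was -0.0142 and *Ier3* -0.0303 with total-count scaling. Leaving out 1 library put *Etv5* between -0.0399 and 0.0100, *Ier3* between -0.0666 and 0.237 and *Spred1* between -0.109 and 0.00185 at 12 h. It put *Etv4* at 18 h between -0.00688 and 0.107, *Spry4* at 24 h between -0.0276 and 0.0377, and at 36 h *Dusp4* between -0.00253 and 0.123 and *Ier3* between -0.0308 and 0.104. The causes were not tested. With 1 library per O4AID time, and 6 to 14 counts of *Egr1* and *Fosl1* in each, changes of these genes in O4AID were below what the depth can show.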
